A study of Rattus norvegicus with 4 samples.

Results

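Vegfa encodes vascular endothelial growth factor A, and the tables analysed here list 4 noncoding transcripts under its name, among 20524 listed transcripts. They were taken as the rows whose gene name was Vegfa, together with any other row within 50 kb of them, of which there were 0. Summed by name they formed 1 of 17290 loci. Their levels were compared after oxygen and glucose deprivation (OGD) and in untreated cells, and between libraries of replicate number 2 and number 1. Vegfa was selected on its counts in these libraries, with its difference between replicate numbers already known, so that difference is described here and not tested.

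The cells were cortical astrocytes of newborn Wistar rats, grown on coverslips above neurons in a shared medium and kept apart from them by paraffin dots. In the OGD group, 2 libraries came from cultures kept for 45 min in glucose-free medium at 1% oxygen and then for 24 h in normal medium and air, as ischemic preconditioning. In the control group, 2 libraries came from untreated cultures. Libraries are named by group and replicate number. The labels do not say that the libraries came from separate cultures, nor what the replicate number marks, so the spread behind each p-value may be a technical one. Counts of listed transcripts were between 2513804 and 2646300 per library. They made up 10.0% to 10.6% of the library totals behind the deposited FPKM (fragments relative to transcript length and to the total of the library). Of the 10 astrocyte marker symbols looked for, 4 had a locus, and Gfap, whose product is the glial intermediate filament, was the highest, with 139 and 51 counts in OGD libraries 1 and 2, and 100 and 61 in control libraries 1 and 2.

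VEGF-A is a secreted growth factor that drives endothelial cells to divide, migrate and form vessels, mainly through the receptor tyrosine kinase Kdr, while Flt1 binds it tightly and can act as a decoy. When oxygen falls, prolyl hydroxylases no longer mark the alpha subunits of hypoxia-inducible factors (HIF) for destruction by the Vhl ubiquitin ligase, and HIF paired with Arnt binds hypoxia response elements and raises transcription of Vegfa. Astrocytes are a known source of VEGF-A in hypoxic nervous tissue. On return to oxygen, HIF is degraded quickly.

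Because the treatment was a fall in oxygen, the sequence just before the RefSeq start of rat Vegfa was read for the core letters that HIF binds. The 250 bases before the start are printed 5′ to 3′ from RefSeq build GRCr8, chr9:22452604-22452853, plus strand, with GC boxes in capitals.
Vegfa: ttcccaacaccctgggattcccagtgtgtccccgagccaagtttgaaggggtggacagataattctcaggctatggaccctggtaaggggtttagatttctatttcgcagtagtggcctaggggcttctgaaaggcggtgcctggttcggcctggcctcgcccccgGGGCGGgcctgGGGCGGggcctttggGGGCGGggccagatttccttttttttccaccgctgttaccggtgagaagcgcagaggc
The GC box GGGCGG, the letters bound by Sp-family factors, occurred 3 times, on the plus strand, beginning 84, 73 and 58 bases before the start. It occurred on either strand in 30.5% of the 33469 RefSeq promoter windows of the same length. The HIF core, ACGTG or GCGTG on either strand, was found 0 times in this window and in 36.7% of all windows. These letters are a description of 1 window, and elements farther upstream were not searched.

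The 4 transcripts lay in a row on chromosome 9 between 17344255 and 17355681, in coordinates as the tables give them. The build is not named with the coordinates, and they cannot be set against the GRCr8 positions above. Vegfa.jSep08 ran from 17344255 to 17347345, with a listed length of 281 bases. Vegfa.oSep08 ran from 17347881 to 17354193, with a length of 793 bases, and Vegfa.mSep08 from 17350276 to 17354890, with a length of 1333 bases. Vegfa.nSep08-unspliced ran from 17352949 to 17355681, and its length of 2733 bases equalled its span. The last 3 overlapped: o and m shared 3918 bases of span, m and n 1942 bases, and o and n 1245 bases. Which bases are exons is not in the tables, and the program that counted the reads is not given in the sources used here. Reads in the shared bases may therefore count towards more than 1 of these rows, and reads of the coding Vegfa messenger RNA may be among them. The nearest other listed transcript began 83.2 kb away.

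**Figure D1:**
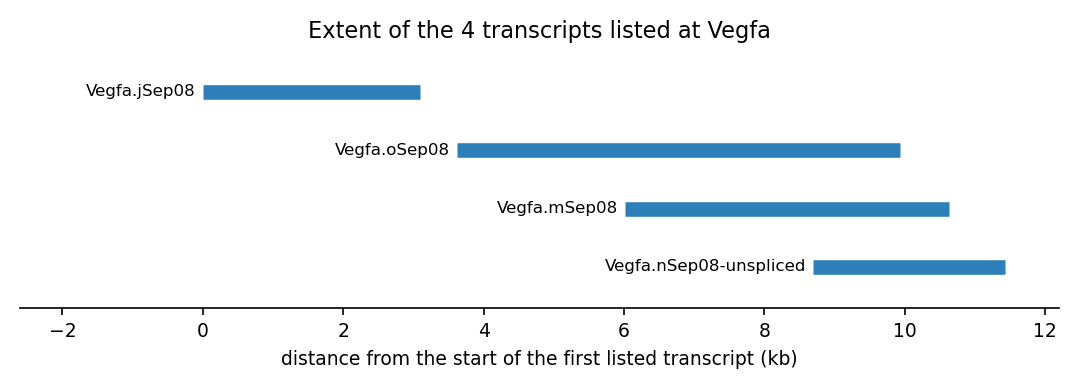
Extent of the 4 transcripts listed at Vegfa, as bars along the distance in kb from the start of Vegfa.jSep08. The o, m and n transcripts overlap, and j stands alone at the low end.

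After OGD and 24 h of reoxygenation, the Vegfa locus was not found raised over control. The summed locus had 756 and 2197 counts in OGD libraries 1 and 2, against 952 and 2142 in control libraries 1 and 2. Scaled by TMM to CPM, the usual normalised read count relative to the summed counts of the tested loci, these were 285 and 916 CPM in OGD libraries and 346 and 854 CPM in control libraries. The OGD libraries held both the highest and the lowest level, and the groups overlapped fully. Means were 600 ± 446 CPM after OGD and 600 ± 359 CPM in control (SD, n = 2 each). Each group held 1 library of each number, so by design its SD reflects the gap between number 2 and number 1. By edgeR's quasi-likelihood test over 9581 loci, of which 0.0835% passed, the log2 fold change was 0.00094 (SE 0.69, adjusted p = 1.00). Its 95% interval was wide, at 0.288-fold to 3.48-fold, so a change of moderate size in either direction was not detectable by this test. Without control replicate 2 the log2 fold change was 0.80, and without OGD replicate 1 it was 0.62. Without control replicate 1 it was -0.50, and without OGD replicate 2 it was -1.08. Leaving out a library makes the replicate numbers unequal between groups. Vegfa differed between numbers, so the signs of these shifts follow from the design.

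Within a replicate number the treated and untreated libraries were close. The OGD over control ratio of Vegfa counts, scaled by library, was 0.822 among the number 1 libraries, with a 95% counting interval of 0.746 to 0.905. Among the number 2 libraries it was 1.07, with an interval of 1.01 to 1.14. The ratio was thus below 1 in 1 pair and above 1 in the other. These intervals are exact binomial, cover counting error only and say nothing of the spread between cultures.

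The locus was among the more abundant ones, with 97.8% of tested loci at a lower mean CPM and a median over tested loci of 19.2 CPM. That rank is not adjusted for length and rests on a sum of 4 rows, of which 3 overlap. Of all 17290 loci, 15137 had a single row. Per length, Vegfa.mSep08 was the highest of the 4, at 10.8 and 35.5 FPKM in OGD libraries 1 and 2, against 13.6 and 28.1 FPKM in control libraries 1 and 2. Vegfa.oSep08 had 5.36 and 12.05 FPKM in OGD libraries, against 7.83 and 17.1 FPKM in control libraries. Vegfa.nSep08-unspliced had 4.23 and 11.3 FPKM in OGD libraries, against 5.02 and 11.0 FPKM in control libraries. For these 3 transcripts the number 2 library was above the number 1 library in each group, and the OGD and control values overlapped. Vegfa.jSep08, the transcript at the low end, had 3 and 3 counts in OGD libraries and 2 and 3 in control libraries. That is too few to be tested, and too few to show whether it shared the pattern of the others.

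**Figure D2:**
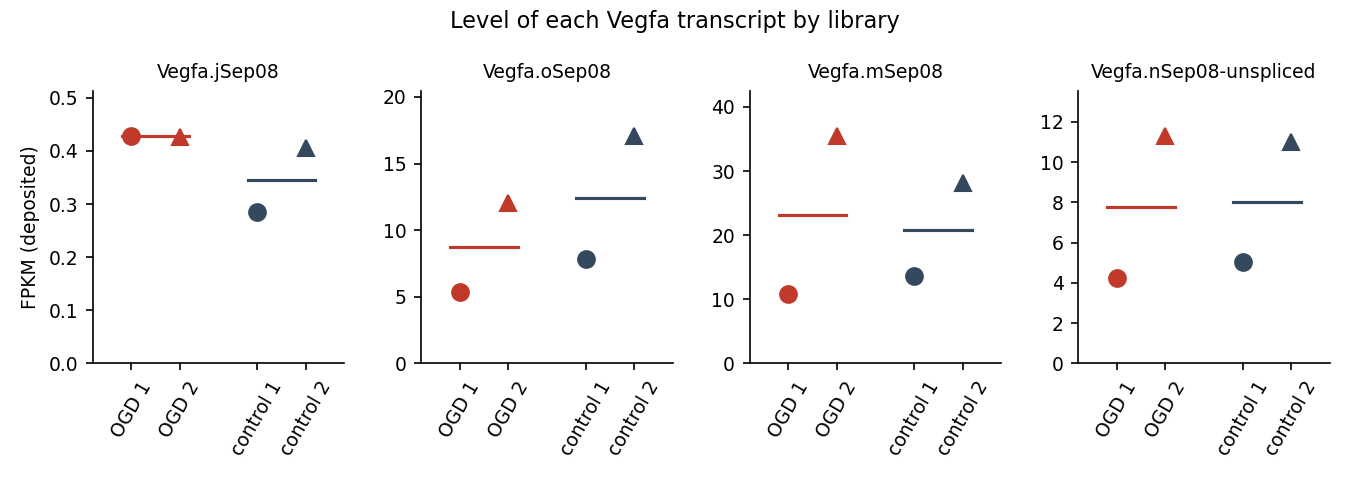
Deposited FPKM of each Vegfa transcript in each library, OGD in red and control in dark blue, with circles for replicate number 1, triangles for number 2 and lines for the mean of 2 libraries; each panel has its own vertical scale from 0. For o, m and n the triangles stand above the circles in both groups, and the group means lie between them.

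Of the 3 transcripts with enough counts, 0 passed edgeR's adjusted p between OGD and control, where 0.00918% of 10892 rows passed. In this fit on group alone, none of the 3 had an unadjusted p under 0.05, where 2.68% of rows did. DESeq2 called 0 of the 3, and among summed loci it called 39 of the 8935 with an adjusted p. Log2 fold changes were -0.52 (SE 0.66) for o, 0.16 (SE 0.76) for m and -0.04 (SE 0.71) for n. With the replicate number as a block, o stood at -0.51 with a smaller error (SE 0.15, adjusted p = 0.90 by edgeR). In that fit m stood at 0.016 (SE 0.20) and n at -0.089 (SE 0.13), and 0 of the 3 passed the adjusted threshold. Among summed loci, the blocked fit called 21 of 9581. Unadjusted p-values of the blocked fit are not given here.

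The makeup of the Vegfa counts differed somewhat between libraries. Vegfa.oSep08 took 14.0% and 10.9% of Vegfa counts in OGD libraries 1 and 2, against 16.3% and 16.7% in control libraries 1 and 2. Its exact 95% interval was 9.61% to 12.3% in OGD library 2 and 15.1% to 18.3% in control library 2, while those of the number 1 libraries overlapped. Both OGD shares were below both control shares, as they were for 17.6% of 2440 rows of loci with several rows. Its own OGD over control ratio was 0.708 (counting interval 0.548 to 0.912) in number 1 and 0.701 (0.592 to 0.828) in number 2. Vegfa.mSep08 took 47.5% and 53.8% of counts in OGD libraries, against 47.6% and 46.2% in control libraries. Its OGD over control ratio was 0.820 (0.712 to 0.944) in number 1 and 1.25 (1.15 to 1.36) in number 2, on opposite sides of 1. Vegfa.nSep08-unspliced stayed between 35.1% and 38.1% in all 4 libraries. By edgeR's diffSpliceDGE test, chosen after these shares were seen, the change of o relative to the other rows of its locus was -0.35 on the log2 scale (adjusted p = 1.00), where 0.655% of 2442 rows passed. That fit was on group alone, so its spread takes in the difference between replicate numbers. With the replicate number as a block, the relative change of o was -0.29 on the log2 scale. It did not pass there either, where 1 of 2442 rows did. The lower share of o after OGD was thus called in neither fit and is not established.

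**Figure D3:**
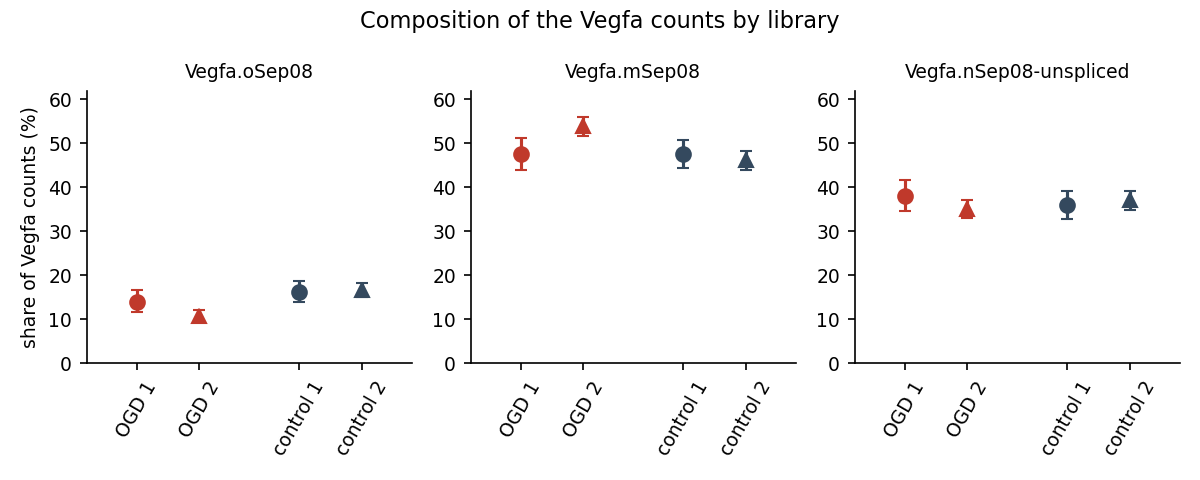
Share of all Vegfa counts, in percent, held by the o, m and n transcripts in each library, OGD in red and control in dark blue, with exact 95% binomial intervals that cover counting error only. The o share is lowest in OGD library 2, at 10.9%, and the n share varies least.

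Between replicate numbers the Vegfa levels stood apart. The number 2 libraries averaged 885 ± 44.2 CPM and the number 1 libraries 316 ± 43.6 CPM (SD, n = 2 each), a log2 difference of 1.49. In order of level the libraries were OGD 2, control 2, control 1 and OGD 1. Within the OGD group, library 2 was 3.22-fold higher than library 1 (counting interval 2.96 to 3.50), and within the control group 2.46-fold (2.28 to 2.66). The number 2 libraries were above both number 1 libraries without overlap at 23.6% of tested loci, and 1.33% of loci passed edgeR's adjusted threshold between numbers. By transcript, the log2 difference was 1.33 for o, 1.56 for m and 1.45 for n, so all 3 overlapping rows carried it. Relative to the library totals behind FPKM the order was the same, and Vegfa reached 87.8 and 81.2 CPM of the totals behind FPKM in OGD library 2 and control library 2, against 30.3 and 38.2 CPM of those totals in OGD library 1 and control library 1.

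Other loci had a similar profile over the 4 libraries. Of 573 loci with a RefSeq symbol and a mean of at least 50 CPM, the 5 whose centred log2 CPM lay nearest to Vegfa were P4ha3, RGD1560812, Atf5, Phldb2 and Col1a1, at Euclidean distances of 0.31 to 0.49. P4ha3, an alpha subunit of the collagen prolyl hydroxylase, had 2242 and 2877 counts in OGD library 2 and control library 2, against 983 and 1156 in OGD library 1 and control library 1. Col1a1, the alpha chain of type I collagen, had 593 and 693 counts in the number 2 libraries of OGD and control, against 329 and 313 in their number 1 libraries. RGD1560812, now named Ccdc71l, had 418 and 395 counts in number 2, against 167 and 152 in number 1. Atf5, a stress-responsive bZIP transcription factor, had 516 and 721 counts in number 2, against 253 and 327 in number 1. Phldb2, an adaptor protein of the cell cortex, had 355 and 433 counts in number 2, against 187 and 162 in number 1. Unlike Vegfa, P4ha3, Atf5, Phldb2 and Col1a1 were higher in control library 2 than in OGD library 2, while RGD1560812 was not. Likeness over 4 libraries is a description, and these loci were picked for it.

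**Figure D4:**
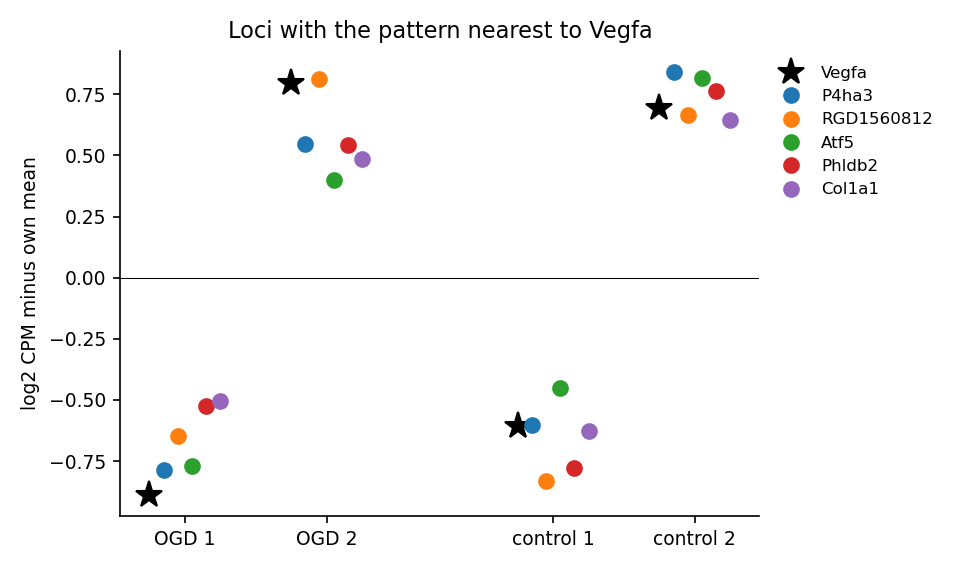
Log2 CPM of Vegfa (star) and of the 5 loci nearest to it (dots), each minus its own mean over the 4 libraries, by library. All 6 are above their mean in OGD 2 and control 2 and below it in OGD 1 and control 1.

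Loci named after cell type markers were set beside Vegfa by replicate number. Of the 11 tested, edgeR called 1 between numbers, where it called 1.33% of all tested loci. The called locus was Col1a1, already picked above for its likeness to Vegfa. With Col3a1 it made up the fibroblast names with a locus (2 of 6). They summed to 325 and 344 CPM in OGD library 2 and control library 2, against 184 and 160 CPM in OGD library 1 and control library 1. Most of these sums was Col1a1, at 247 and 276 CPM in number 2, against 124 and 114 CPM in number 1. The 4 astrocyte names (of 10) summed to 30.9 and 34.3 CPM in number 2, against 64.4 and 51.0 CPM in number 1, without a call. Microglia names (3 of 7) summed to 35.9 and 43.4 CPM in number 2, against 10.9 and 28.4 CPM in number 1. Ptprc, a surface phosphatase of blood-derived cells, was at 29.6 and 36.3 CPM in number 2, against 4.90 and 21.1 CPM in number 1. Cd68, a lysosomal protein of macrophages, was at 5.42 and 6.38 CPM, against 5.65 and 6.55 CPM. Ptprc made up most of the microglia sum in every library but OGD library 1, where Cd68 was higher. Neuron names (3 of 6) summed to 119 and 118 CPM in number 2, against 110 and 88.8 CPM in number 1, and their log2 differences had both signs, at 0.41 for Gria2, 0.78 for Rbfox3 and -0.98 for Syn1. Of 8 endothelial names, Pecam1 and Tek had a locus, with a sum between 0.377 and 2.92 CPM, and Pecam1 was at 0 in OGD library 1. The 1 mural name with a locus, Abcc9, had 22.5 and 6.77 CPM in number 2, against 32.0 and 2.18 CPM in number 1, and did not separate the numbers.

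Between OGD and control, edgeR called 0 of these 11 marker loci, where 0.0835% of all tested loci passed. Of the 11, 2, Syn1 and Abcc9, had an unadjusted p under 0.05, as did 2.33% of all tested loci. Syn1, a protein of synaptic vesicles, was at 36.9 and 18.8 CPM in OGD libraries 1 and 2, against 0.728 and 0.398 CPM in control libraries 1 and 2. Its log2 fold change was 5.50 (SE 0.63, adjusted p = 0.185 by edgeR), and DESeq2 called it (adjusted p = 8.2e-05). DESeq2 called 1 of the 10 marker loci with an adjusted p, beside 39 of 8935 among all loci. Abcc9, a potassium channel subunit, was at 32.0 and 22.5 CPM in OGD libraries, against 2.18 and 6.77 CPM in control libraries (log2 fold change 2.61, SE 0.58, adjusted p = 1.00 by edgeR). These are noncoding rows at the marker genes, and in bulk RNA fewer cells of a type and less RNA per cell cannot be told apart. Their part in the Vegfa levels was not tested.

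The rest of the VEGF pathway, and the lists that follow, were looked up by name among the listed noncoding transcripts. Levels given for these loci are those of the listed rows, and their coding messenger RNAs were not measured apart. Of the other ligands, Vegfb had a locus, with 200 and 156 counts in OGD libraries 1 and 2, against 215 and 164 in control libraries 1 and 2. Its log2 fold change was -0.03 (SE 0.22), and between replicate numbers, 2 over 1, it was -0.24, opposite in sign to Vegfa. Of the 5 receptor and coreceptor symbols, Flt1, Kdr and the neuropilins among them, 0 had a row. Of 15 signalling symbols, 4 loci were tested and 0 passed between OGD and control by edgeR, where 0.0835% of all loci did. Of the 4, 0 had an unadjusted p under 0.05, beside 2.33% of all loci. DESeq2 called 0 of them, beside 39 of the 8935 loci with an adjusted p there. Ptk2, the gene of focal adhesion kinase, averaged 109 ± 33.6 CPM after OGD and 83.0 ± 12.8 CPM in control (SD, n = 2 each). Pik3ca, a kinase gene upstream of Akt, had a log2 fold change of -0.36 (SE 0.38). Between numbers, 2 over 1, the log2 differences of these 4 loci lay between 0.22 and 0.50, the same sign as Vegfa. Of all 9581 tested loci, 4705 were also above 0. None of the 4 was called, where edgeR called 0.825% of loci higher.

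Regulators of HIF gave 3 tested loci, of which 0 passed between OGD and control by edgeR, beside 0.0835% of all loci. Of the 3, 0 had an unadjusted p under 0.05, beside 2.33% of all loci. Of the 2 with an adjusted p in DESeq2, 0 passed there, beside 39 of 8935 among all loci. Arnt, the partner subunit of HIF, averaged 84.9 ± 6.79 CPM after OGD and 85.5 ± 21.7 CPM in control (SD, n = 2 each). Vhlh, now Vhl, had 40 and 26 counts in OGD libraries, against 38 and 34 in control libraries. Cul2, a scaffold of the same ubiquitin ligase, had 11 and 11 counts in OGD libraries, against 19 and 4 in control libraries. Between numbers, 2 over 1, their log2 differences lay between -0.84 and -0.24, and 50.9% of all tested loci were also below 0. None of the 3 was called, where edgeR called 0.501% of loci lower.

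Among genes whose products act on Vegfa RNA, its splicing or its stability, 7 loci were tested and 0 passed by edgeR, beside 0.0835% of all loci. Of the 7, 0 had an unadjusted p under 0.05, beside 2.33% of all loci. DESeq2 called 0 of them, beside 39 of the 8935 loci with an adjusted p there. Their median log2 fold change, OGD over control, was 0.20, beside -0.0018 over all loci. Hnrnpa2b1, an RNA-binding hnRNP gene, had 589 and 543 counts in OGD libraries, against 986 and 705 in control libraries, and stood at -0.51 on the log2 scale (SE 0.20, adjusted p = 1.00 by edgeR). The groups did not overlap there, as at 28.0% of tested loci. Elavl1, the gene of the stabilising protein HuR, stood at -0.41 (SE 0.26), Hnrnpl at 0.20 (SE 0.17) and Sfrs5, a splicing factor gene now named Srsf5, at 0.07 (SE 0.17).

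Listed noncoding rows at other hypoxia targets were also not found raised, and a count of 0 among so few loci is near the background. Of 68 symbols, older names included, 13 had a locus and 7 had enough counts, and 0 of these passed between OGD and control by edgeR. The background was 0.0835% of all loci. None of the 7 had an unadjusted p under 0.05, beside 2.33% of all loci. Of the 6 with an adjusted p in DESeq2, 0 passed there, beside 39 of 8935 among all loci. Log2 fold changes lay between -0.19 and 0.28, 3 above and 4 below 0, with a median of -0.04, beside -0.0018 over all tested loci. The median was 0.57 without control replicate 1, and between -0.14 and 0.11 without any 1 of the others. Pfkfb3, which makes the activator of glycolytic phosphofructokinase, averaged 171 ± 16.0 CPM after OGD and 141 ± 46.4 CPM in control (SD, n = 2 each). P4ha2, a collagen prolyl hydroxylase subunit, averaged 65.6 ± 9.18 CPM after OGD and 71.8 ± 8.04 CPM in control. Gpi and Pfkp, of glycolysis, had log2 fold changes of 0.20 (SE 0.40) and -0.05 (SE 0.49). The glucose transporter, lactate dehydrogenase and Bnip3 symbols of the list had no row.

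Between replicate numbers, 5 of the 7 tested hypoxia targets had a log2 difference below 0, number 2 over number 1. So did 50.9% of all tested loci. By edgeR, 1 of 7 was called higher in number 2, where 0.825% of loci were, and 0 were called lower. That locus was Lox, whose enzyme product cross-links collagen, with 2684 and 3202 counts in OGD library 2 and control library 2, against 4 and 4 in OGD library 1 and control library 1. The other 6 had log2 differences, number 2 over number 1, between -0.68 and 0.02, and the median of the 7 was -0.41, beside -0.0089 over all tested loci. Pfkfb3, for example, averaged 134 ± 36.3 CPM in number 2 and 178 ± 5.91 CPM in number 1 (SD, n = 2 each).

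**Figure D5:**
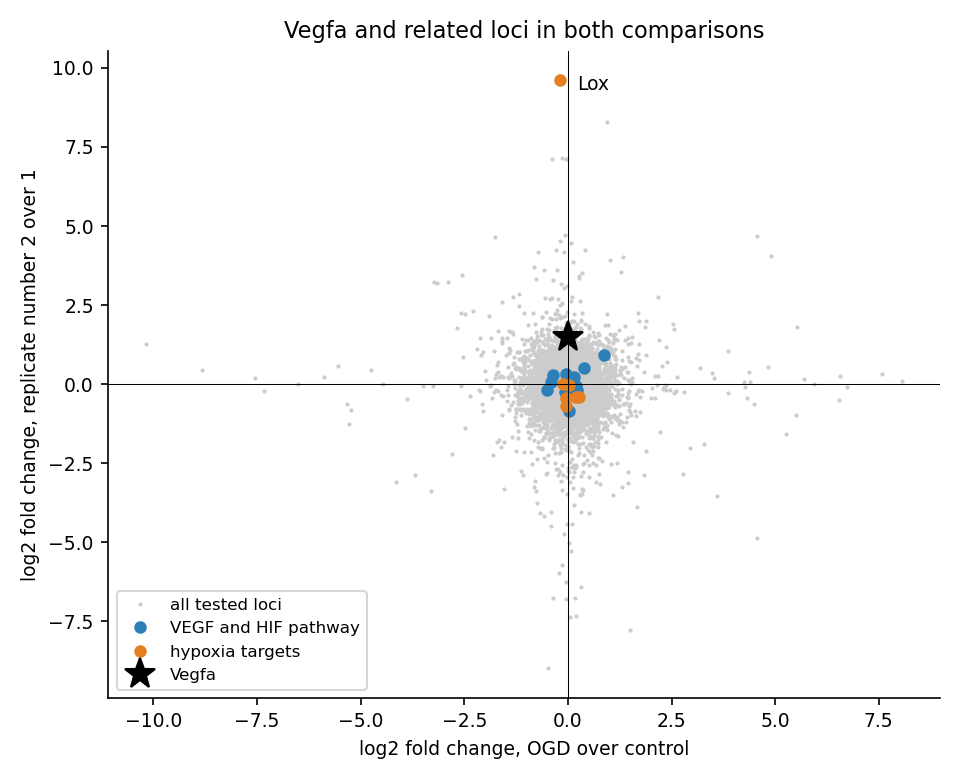
Log2 fold change of each tested locus between OGD and control (horizontal) and between replicate number 2 and 1 (vertical), with all loci in grey, loci of the VEGF and HIF pathway in blue, hypoxia targets in orange and Vegfa as a star. Vegfa lies at 0.00094 and 1.49, and of the coloured loci Lox alone lies above it.

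Among other angiogenic factors, 1 of 5 tested loci rose after OGD by edgeR, where 0.0417% of loci did. It was Mdk, which encodes midkine, a growth factor that binds heparin, with 447 and 289 counts in OGD libraries 1 and 2, against 5 and 3 in control libraries 1 and 2. Its log2 fold change was 6.53 (SE 0.37, adjusted p = 0.031 by edgeR), and lay between 6.28 and 6.86 with a library left out. The call was lost in edgeR without control replicate 1, control replicate 2 or OGD replicate 1, and without a filter on low counts (adjusted p = 0.072). It held with DESeq2 (adjusted p = 5.7e-20) and in edgeR with the replicate block (adjusted p = 0.0033). Igf1 had 6 and 29 counts in OGD libraries 1 and 2, against 7 and 30 in control libraries 1 and 2. Its number 2 libraries were thus above both number 1 libraries, as for Vegfa and at 23.6% of tested loci. Igf1 did not pass between numbers by edgeR (log2 difference 2.30, SE 0.38, adjusted p = 0.063). Pdgfa, Pdgfc and Tgfb2 had log2 fold changes between OGD and control of 0.17 (SE 0.35), -0.19 (SE 0.23) and -0.17 (SE 0.47).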

How the data were processed

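Total RNA from 2 OGD and 2 control libraries was sequenced by the authors. They deposited 1 table per library with whole-number read counts and FPKM per transcript, per the file headers. HISAT2, StringTie and the mouse build mm9 are named in the submitters' processing notes, though the tables list rat identifiers, so the build of the coordinates is not stated here. FPKM values were used as deposited; the totals behind them were the same for all rows of a library within 0.1%. Counts of rows sharing a name on 1 chromosome were summed. Loci, and rows as deposited, went through edgeR 4.0.16 (R 4.3.3; filterByExpr, TMM, quasi-likelihood F test on group alone, Benjamini-Hochberg adjusted p under 0.05). SE is the absolute log2 fold change over the square root of F. Alternatives were DESeq2 1.42.0, other scalings and filters, a block by replicate number, leaving out each library and, added after the data were seen, edgeR's diffSpliceDGE and Vegfa.mSep08 alone. With a library left out, the lone library of a group is assumed to vary like those of the other group. In simulated counts for the 9581 loci, edgeR called 2% of 2-fold, 56% of 4-fold and 100% of 20-fold changes between OGD and control. The simulation held no difference between replicate numbers and used the spread typical of loci of like abundance. Vegfa did differ between numbers, so these shares do not give the chance of a call at Vegfa.

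The gene and all lists were chosen with earlier results of these data known. Named are all Vegfa rows, rows within 50 kb, of each list the loci passing in either comparison and up to 4 more by mean CPM, and the 5 loci nearest in pattern (log2 of CPM plus 0.5). RefSeq symbols are from the GRCr8 table. Some named loci are not reported here.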

Additional observations from a re-analysis of the deposited data

How the results depend on the processing

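The log2 fold change of the Vegfa locus between OGD and control, 0.00094, changed sign with DESeq2 (-0.012), with DESeq2 size factors (-0.0069), without a filter on low counts (-0.0037), with totals implied by FPKM (-0.015) and with the replicate number as a block (-0.089, SE 0.13, 95% interval 0.743-fold to 1.19-fold, adjusted p = 0.94). Leaving out each library, which makes the replicate numbers unequal between groups, gave -1.08 to 0.80, and Vegfa.mSep08 alone 0.16. Vegfa passed in 0 of these fits. The labels do not say what the replicate number marks; same-numbered libraries deviated together with r = 0.30 across loci. With a library left out, o lay between -1.32 and 0.31, m between -1.05 and 0.93 and n between -1.02 and 0.79; relative to its locus with the replicate block, n was at 0.0036. The difference between replicate numbers stayed between 1.30 and 1.64; totals implied by FPKM gave 1.30 and moved the median of all loci to -0.19. Calls between OGD and control numbered 8, and 39 with DESeq2, 21 with the replicate block, 0 without a filter (403 at an unadjusted p under 0.05), 1 without summing and 0 to 12 with a library left out (0 without control 1, control 2 or OGD 1, and 12 without OGD 2). Calls between numbers were 127, and 419 with DESeq2, 7 without a filter and 141 to 215 with a library left out. The hypoxia target median was -0.04, and -0.14 to 0.57 with a library left out, the highest without control replicate 1. The cause was not tested. No row other than Vegfa lay within 50 kb, so that comparison gave no value, and unsummed rows give no single locus value. With 2 libraries a group, 2-fold changes simulated without a difference between replicate numbers were called at 2% of loci.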

Other observations

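The listed transcript nearest to Vegfa lay outside the 50 kb window and was chosen after its values were seen. This StringTie transcript, MSTRG.32507.1, ran from 17438921 to 17488256 on chromosome 9, 83.2 kb beyond the end of the Vegfa rows. It had 56 and 52 counts in OGD library 2 and control library 2, against 3 and 5 in OGD library 1 and control library 1. Its number 2 libraries were above both number 1 libraries, as for Vegfa and at 23.6% of tested loci. Its number 1 counts were near the floor, and its OGD and control counts overlapped. The tables give it no gene name.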
